A study of Mus musculus with 9 samples.

Results

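The genes described here encode proteins of the myoblast surface that take part in fusion or in the membrane of the young muscle fibre: the fusogens Mymk and Mymx, the cadherins Cdh2 and Cdh15, the ferlins Myof and Dysf, the caveolin Cav3, and the immunoglobulin superfamily receptors Kirrel, Jam2 and Jam3. A gene was included where a probe set, the group of probes that measures a gene on the array, carried exactly that symbol in the platform annotation. All 10 genes had such a probe set, 1 each, among the 19938 genes named by a probe set of their own. All 10 lay above the median of their array on all 9 arrays, and all entered the tests with 16582 genes in all.

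Expression was measured on Affymetrix arrays in primary skeletal muscle myoblasts of Balb/c mice, all wild type, at 0 days as cycling myoblasts and as myotubes after 2 and 5 days in differentiating medium, with 3 arrays at each time point. The titles name the differentiating medium and the extraction protocol speaks of differentiation, but the culture protocol lists one growth medium, with serum and basic fibroblast growth factor, for cycling myoblasts and myotubes alike. Whether the 3 replicates came from separate cultures or animals is not given, so a p-value reflects array-to-array spread that could be purely technical, and neither the sex nor the age of the mice is given in the sources used here. Each group was a whole culture, so a change in the share of fused cells and a change in RNA per cell cannot be told apart.

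Muscle fibres form when myoblasts leave the cell cycle, adhere to each other and merge their plasma membranes. Mymk (myomaker), a membrane protein with several passes, and Mymx (myomixer), a very small membrane protein, act in sequence in the merging of membranes, and together they can make fibroblasts fuse. Cadherins hold the cells together through calcium-dependent contacts and bind catenins inside the cell. Ferlins are large calcium-binding membrane proteins of vesicle fusion, and caveolins form the small membrane pits called caveolae.

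Values are log2 values from the RMA method, given as deposited and then on a common scale on which all 9 arrays were brought to one distribution. The second scale is needed because the arrays of each time point had been normalized together and apart from the other time points, so an effect of the separate normalization and an effect of time cannot be told apart. The median change (log2 fold change, log2FC) of all tested genes was -0.01 on the deposited scale and 0.09 on the common one at day 2 against cycling myoblasts, -0.37 and 0.17 at day 5 against cycling myoblasts, and -0.40 and 0.05 at day 5 against day 2. A gene is said to have risen or fallen only where limma gave an adjusted p under 0.05 and a change of at least 2-fold (log2FC of at least 1 in size) in the same direction on both scales. Within a time point at least 51.4% of probe sets held identical values (within 1e-06) on any pair of arrays, and 15 of the 30 combinations of a gene described here and a time point had an SD of 0, within the same tolerance, over the 3 arrays as deposited. The largest SD was 0.13, for Mymk in cycling myoblasts. The spread between arrays is therefore too small to stand for the spread between cultures, and the size of a change carries more than its p-value. Marker genes set the labels against the data. The creatine kinase gene Ckm averaged 6.19 (cycling), 11.01 (day 2) and 11.34 (day 5). The proliferation gene Top2a averaged 9.60, 3.44 and 3.08. Of the myoblast lineage markers Pax7 averaged 7.88 (cycling), 5.73 (day 2) and 4.97 (day 5), and Myod1 11.56, 10.60 and 9.52. Myf5 averaged 9.14, 7.59 and 6.75, and Des 10.22, 11.49 and 11.35. Of 6 muscle differentiation markers, Ckm among them, all rose at day 2 and all but Myog at day 5, each against cycling myoblasts. All 6 already lay above the array median on all 3 cycling arrays, and Ckm was the lowest of them there. The others averaged 10.92 (Acta1), 9.15 (Myog), 8.81 (Tnnt3), 8.50 (Myh3) and 8.39 (Mylpf) in cycling myoblasts. From day 2 to day 5 none of these markers was called, and their median change was -0.56 with deposited values and -0.24 after common scaling. In this step Ckm was higher on both scales and Tnnt3 differed in sign between scales. Myog, Myh3, Mylpf and Acta1 were lower on both.

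After 2 days 5 of the 10 genes had risen (Mymk, Mymx, Dysf, Cav3 and Jam2), Kirrel had fallen, and Cdh2, Cdh15, Myof and Jam3 had not reached 2-fold. Among all tested genes 6.04% rose and 8.41% fell in that comparison, 14.4% together, while 18.4% passed as deposited alone and 16.2% on the common scale alone. By day 5, compared with cycling myoblasts, 4 had risen (Mymk, Dysf, Cav3 and Jam2) and 4 had fallen (Cdh2, Cdh15, Myof and Kirrel), against 4.44% of all tested genes that rose and 12.3% that fell. Together these were 16.7% of all genes, with 33.6% passing as deposited alone and 24.1% on the common scale alone. From day 2 to day 5 none rose and 4 fell (Mymx, Cdh2, Cdh15 and Myof), against 0.766% and 3.67% of all tested genes, 4.44% together, with 16.1% passing as deposited alone and 6.45% on the common scale alone. The largest limma adjusted p among the genes called was 4.72e-08 at day 2, 2.90e-07 at day 5 against cycling myoblasts and 5.86e-11 at day 5 against day 2, on either scale. The comparisons of day 2 and day 5 with cycling myoblasts share the cycling arrays. The 10 genes were picked with earlier results known, so these counts describe them and test nothing about them as a group.

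**Figure D1:**
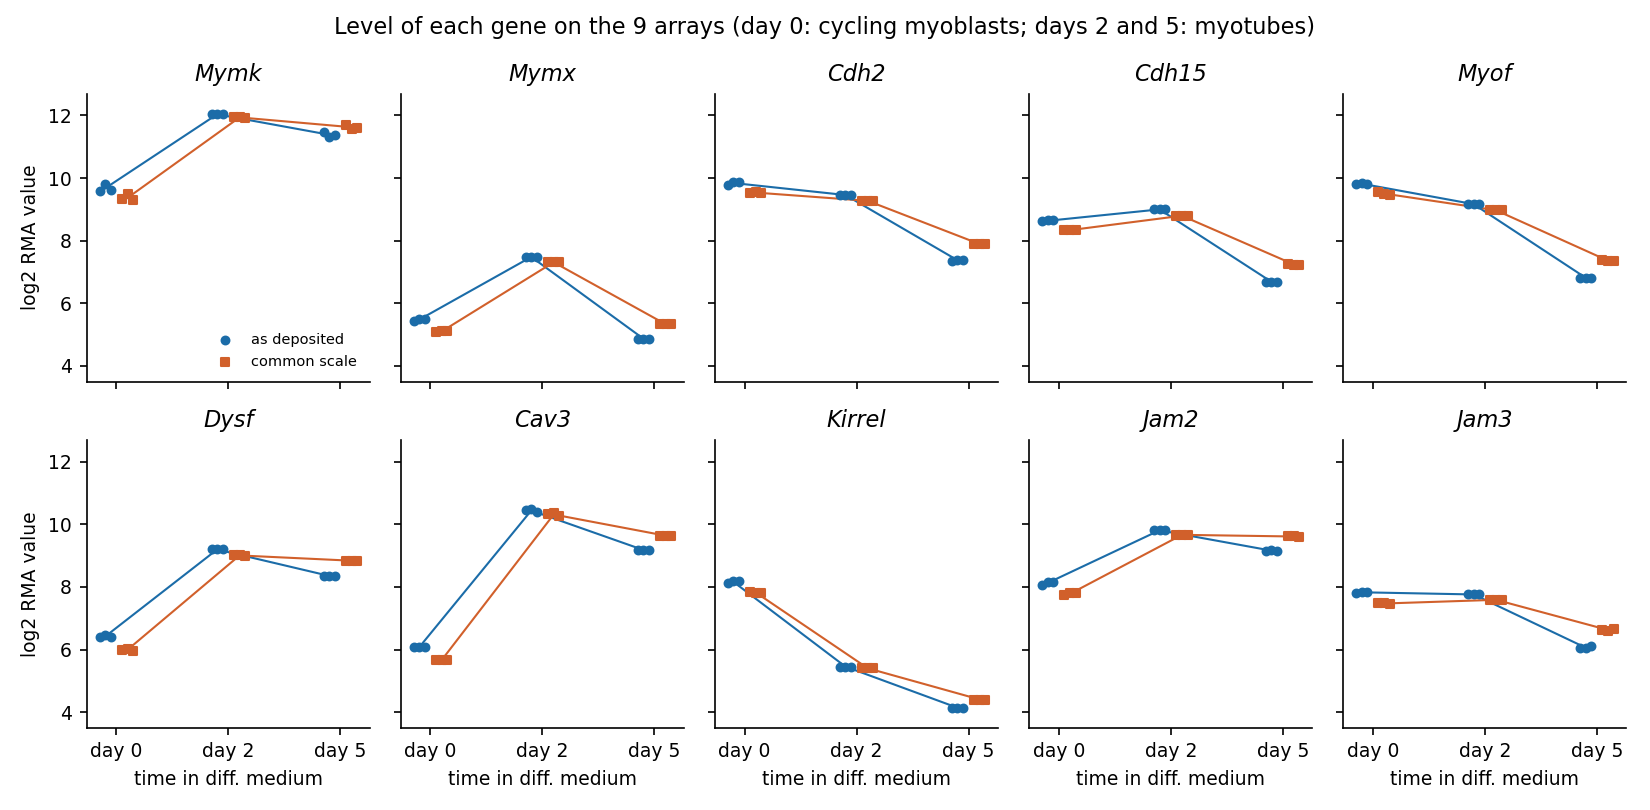
Log2 RMA value of each of the 10 genes on the 9 arrays, by time point (x axis, days in differentiating medium, evenly spaced), with blue circles for deposited values and orange squares for the common scale. Each point is an array and lines join the means of the 3 arrays. Mymx peaked at day 2, whereas Kirrel was lower at each later time point and Myof and Cdh2 dropped mainly between day 2 and day 5.

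Mymk was already at 9.57, 9.82 and 9.63 in cycling myoblasts as deposited, and stood at 12.04 on all 3 day 2 arrays and at 11.48, 11.31 and 11.36 at day 5. Every day 2 and day 5 array lay above every cycling array. The change at day 2 against cycling myoblasts was a log2FC of 2.36 ± 0.07 (SE) as deposited and 2.57 ± 0.05 on the common scale, a 5.15-fold and 5.94-fold rise. At day 5 it was still 1.71 and 2.26 above cycling myoblasts. Between day 5 and day 2 the difference was -0.65 on the deposited scale and -0.31 on the common one, below 2-fold on both.

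Mymx, the partner of Mymk, behaved differently after day 2. Its values were 5.45, 5.50 and 5.50 in cycling myoblasts, 7.48 on all 3 day 2 arrays and 4.87 on all 3 day 5 arrays, as deposited. It thus rose at day 2 (log2FC 2.00 and 2.21) and fell again from day 2 to day 5 (log2FC -2.61 and -1.98, a 6.10-fold and 3.94-fold fall). At day 5 its direction against cycling myoblasts depended on the scale, with a log2FC of -0.61 as deposited and 0.23 on the common scale. Ranked among all probe sets of its array, which both scales share, Mymx stood at the 62.8th percentile before differentiation, the 84.8th at day 2 and the 65.4th at day 5. Its fall from day 2 to day 5 lay at the 0.148th percentile of all tested genes as deposited and at the 0.178th on the common scale.

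A difference between 2 genes on the same array cancels any constant offset between arrays, but not an offset that varies with the level of a gene. The 2 fusogens, the 2 cadherins, the 2 ferlins, and Jam2 with Jam3 were also set against each other by the difference of their log2FC. These 4 pairs were chosen after the values had been seen. From day 2 to day 5 the difference in log2FC of Mymx minus Mymk was -1.96 ± 0.05 (SE) with deposited values and -1.67 ± 0.04 on the common scale. Between day 2 and cycling myoblasts the same difference was only -0.36 on either scale. In all 12 such comparisons (4 pairs in 3 contrasts), on either scale, the arrays of the 2 time points did not overlap, and the exact two-sided permutation p was 0.1 before adjustment, the smallest that 3 arrays against 3 can give.

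The cadherins were lower late. Cdh2 (N-cadherin), found in many cell types including muscle precursors and nerve cells, was at 9.79, 9.87 and 9.87 in cycling myoblasts, 9.46 on all 3 day 2 arrays, and 7.36, 7.39 and 7.39 at day 5. The day 2 arrays lay slightly under the cycling ones, with a log2FC of -0.38 as deposited and -0.26 on the common scale, and the day 5 arrays lay far below both. Cdh2 fell at day 5 against cycling myoblasts (log2FC -2.46 and -1.64) and against day 2 (log2FC -2.08 and -1.38).

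Cdh15 (M-cadherin), the cadherin most restricted to the muscle lineage, was at 8.61, 8.65 and 8.65 in cycling myoblasts, 9.00, 9.01 and 9.00 at day 2, and 6.69 on all 3 day 5 arrays. Its highest values were at day 2, above cycling myoblasts by 0.36 as deposited and 0.46 on the common scale, which is under 2-fold. It fell by day 5, with log2FC of -1.95 and -1.10 against cycling myoblasts and -2.31 and -1.56 against day 2. Cdh15 and Cdh2 thus fell by nearly equal amounts from day 2 to day 5, with a difference in log2FC of -0.23 ± 0.01 (SE) on the deposited scale and -0.17 ± 0.01 on the common one.

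The ferlins moved apart. Myof (myoferlin), which acts in membrane trafficking and fusion of myoblasts in the mouse, was at 9.81, 9.83 and 9.81 in cycling myoblasts, 9.17 on all 3 day 2 arrays and 6.82 on all 3 day 5 arrays. Dysf (dysferlin), needed for resealing of the muscle fibre membrane, was at 6.39, 6.46 and 6.39 in cycling myoblasts, 9.19 on all 3 day 2 arrays and 8.35 on all 3 day 5 arrays. No time point overlapped another for either gene. Dysf rose at day 2 (log2FC 2.78 and 3.01) and was still up at day 5 (log2FC 1.94 and 2.84), whereas Myof had a log2FC of -0.65 and -0.53 at day 2 and fell by day 5 (log2FC -3.0 and -2.14).

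The difference in log2FC between Dysf and Myof was 3.43 ± 0.02 (SE) at day 2 against cycling myoblasts as deposited and 3.54 ± 0.03 on the common scale. At day 5 it was 4.94 ± 0.02 and 4.99 ± 0.03, so the ratio of the Dysf signal to the Myof signal was 30.7-fold and 31.7-fold higher than in cycling myoblasts. It was the widest shift of the 4 pairs and nearly equal on both scales. Of the other ferlin genes all 4 were tested and none reached 2-fold in any of the 3 comparisons, with log2FC between -0.75 and 0.64 on the common scale. Their levels lay between 1.28 below and 0.26 above the array median, so a change in them may not have been measurable.

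**Figure D2:**
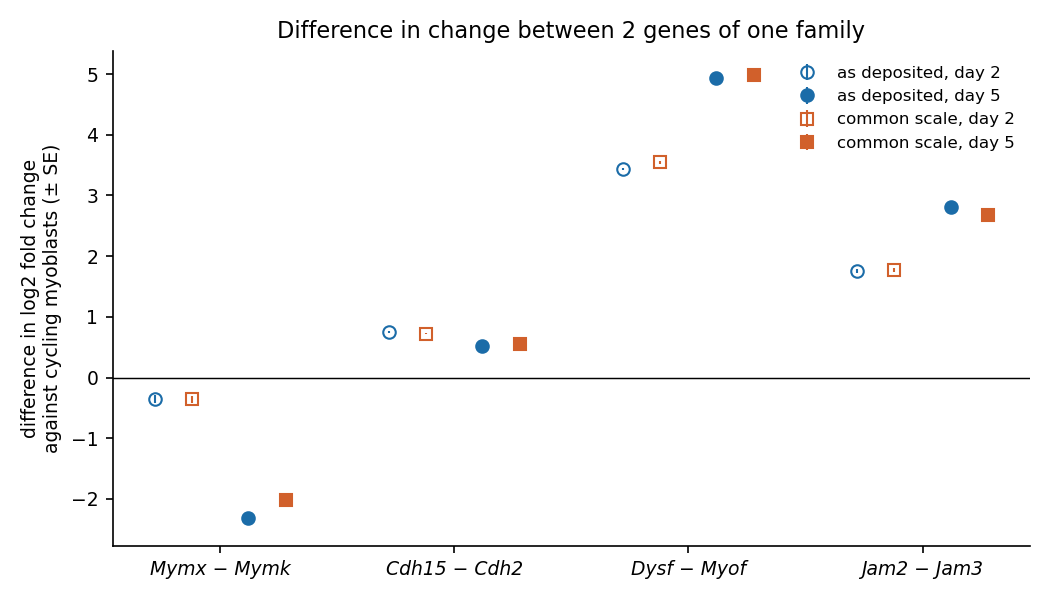
Difference in log2 fold change between the 2 genes of each pair (y axis, ± SE from the array-level differences, n = 3 arrays per time point), at day 2 (open) and day 5 (filled) against cycling myoblasts, as deposited (blue) and on the common scale (orange). Dysf minus Myof reached 4.94 and 4.99 at day 5, and Mymx minus Mymk -2.32 and -2.02.

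Cav3, the muscle form of caveolin, had the largest change of the 10 genes. It was at 6.08 on all 3 cycling arrays, 10.44, 10.48 and 10.40 at day 2, and 9.18 on all 3 day 5 arrays. It rose at day 2 by a log2FC of 4.36 as deposited and 4.65 on the common scale, a 20.6-fold and 25.1-fold rise, with the deposited value at the 99.9th percentile of all tested genes. At day 5 the log2FC against cycling myoblasts was 3.10 and 3.97. Between day 5 and day 2 it was -1.26 on the deposited scale and -0.68 on the common one, so that this step passed 2-fold on the deposited scale alone.

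The RefSeq table of sequences upstream of gene starts (build GRCm38.p6) had entries used here for 5 of the 10 genes (Cav3, Cdh15, Dysf, Kirrel and Myof), with 2 starts for Dysf. The 250 bases before each start were searched on both strands for the E-box CANNTG, the motif bound by myogenic bHLH factors, for its form CAGCTG, which is counted within CANNTG as well, for the MCAT element CATTCC, for TATAAA, and for the MEF2 site and the CArG box by name. Across all 32851 such upstream sequences on record, 66.2% held CANNTG, 13% CAGCTG, 12.6% CATTCC, 12.4% TATAAA, 2.92% the MEF2 site and 1.47% the CArG box. Shown are Cav3, which rose most, Cdh15, and the ferlins, which moved apart. Capitals mark every match to one of these motifs.
Cav3, chr6:112459255-112459504, plus strand: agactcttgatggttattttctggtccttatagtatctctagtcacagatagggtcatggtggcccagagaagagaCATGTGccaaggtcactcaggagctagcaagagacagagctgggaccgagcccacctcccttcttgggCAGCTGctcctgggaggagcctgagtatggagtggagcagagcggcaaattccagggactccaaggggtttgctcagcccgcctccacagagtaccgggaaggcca
Cdh15, chr8:122848124-122848373, plus strand: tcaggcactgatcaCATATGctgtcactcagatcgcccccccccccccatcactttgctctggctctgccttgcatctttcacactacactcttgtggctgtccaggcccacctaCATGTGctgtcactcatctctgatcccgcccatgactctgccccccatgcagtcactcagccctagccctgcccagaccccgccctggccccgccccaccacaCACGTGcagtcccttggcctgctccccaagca
Dysf, upstream start, chr6:84008348-84008597, plus strand: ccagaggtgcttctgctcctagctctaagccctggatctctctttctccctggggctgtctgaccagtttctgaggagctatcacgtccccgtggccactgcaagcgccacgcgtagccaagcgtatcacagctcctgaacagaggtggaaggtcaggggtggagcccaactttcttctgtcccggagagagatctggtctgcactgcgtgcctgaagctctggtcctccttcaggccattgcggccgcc
Dysf, downstream start, chr6:84019136-84019385, plus strand: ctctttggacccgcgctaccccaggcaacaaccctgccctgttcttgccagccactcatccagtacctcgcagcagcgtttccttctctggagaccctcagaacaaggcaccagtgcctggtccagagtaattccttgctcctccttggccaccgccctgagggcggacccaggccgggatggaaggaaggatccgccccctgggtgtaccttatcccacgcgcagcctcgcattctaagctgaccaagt
Myof, chr19:38043578-38043827, minus strand: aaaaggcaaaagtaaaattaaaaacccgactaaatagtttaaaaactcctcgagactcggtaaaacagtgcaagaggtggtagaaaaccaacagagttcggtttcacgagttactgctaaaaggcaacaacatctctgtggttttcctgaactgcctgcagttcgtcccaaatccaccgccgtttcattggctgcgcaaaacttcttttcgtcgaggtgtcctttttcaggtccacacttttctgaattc
Cav3 held 2 matches to CANNTG, of which 1 was CAGCTG, starting 174 and 106 bases before the start site. Cdh15 held 3 matches to CANNTG and none to CAGCTG, starting 236, 135 and 32 bases before the start. Neither start of Dysf, nor Myof, nor Kirrel, held a match to any motif searched in this window. The annotated Dysf gene begins at 84008361 on chr6, and Kirrel, on the minus strand, begins at 87174777 on chr3. The windows of Dysf and Kirrel thus lie mostly or wholly inside the annotated gene. Most of the sequence before the outermost start of these genes was not searched. A match is a stretch of letters and no evidence of binding, and these arrays do not measure promoters.

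Among the immunoglobulin superfamily genes Kirrel fell, Jam2 rose and Jam3 passed 2-fold on both scales in no comparison. Kirrel is the mouse relative of receptors that join founder cells and fusion-competent myoblasts in Drosophila. Its values were 8.14, 8.17 and 8.17 in cycling myoblasts, 5.46 on all 3 day 2 arrays and 4.14 on all 3 day 5 arrays, and the time points did not overlap. It fell at day 2 (log2FC -2.71 and -2.42) and was 16.2-fold and 10.7-fold lower at day 5 than in cycling myoblasts (log2FC -4.02 and -3.42). At day 5 its level was 0.16 above the array median as deposited, so the size of this fall is limited at its lower end. Between day 5 and day 2 the log2FC was -1.31 on the deposited scale and -0.997 on the common one, just short of 2-fold.

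Jam2 and Jam3 are junctional adhesion molecules that bind each other and are needed for fusion of fast muscle precursors in zebrafish. Jam2 was at 8.05, 8.16 and 8.16 in cycling myoblasts, 9.81 on all 3 day 2 arrays and 9.15, 9.16 and 9.15 at day 5. It rose at day 2 (log2FC 1.68 and 1.89) and stayed up at day 5 (log2FC 1.03 and 1.83), where the deposited value was just past 2-fold. The day 5 call was lost when tested against a 2-fold change (limma's treat), and without cycling replicate 1 the deposited log2FC was 1.0. Jam3 was at 7.81, 7.85 and 7.82 in cycling myoblasts, 7.76 on all 3 day 2 arrays and 6.04, 6.04 and 6.10 at day 5. At day 2 its log2FC was -0.07 on the deposited scale and 0.12 on the common one, so no direction is given. At day 5 it was -1.77 and -0.85 against cycling myoblasts and -1.70 and -0.96 against day 2, under 2-fold on the common scale in both. The difference in log2FC between Jam2 and Jam3 was 1.75 ± 0.03 (SE) as deposited and 1.77 ± 0.03 on the common scale at day 2, and 2.80 ± 0.04 and 2.68 ± 0.04 at day 5.

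**Figure D3:**
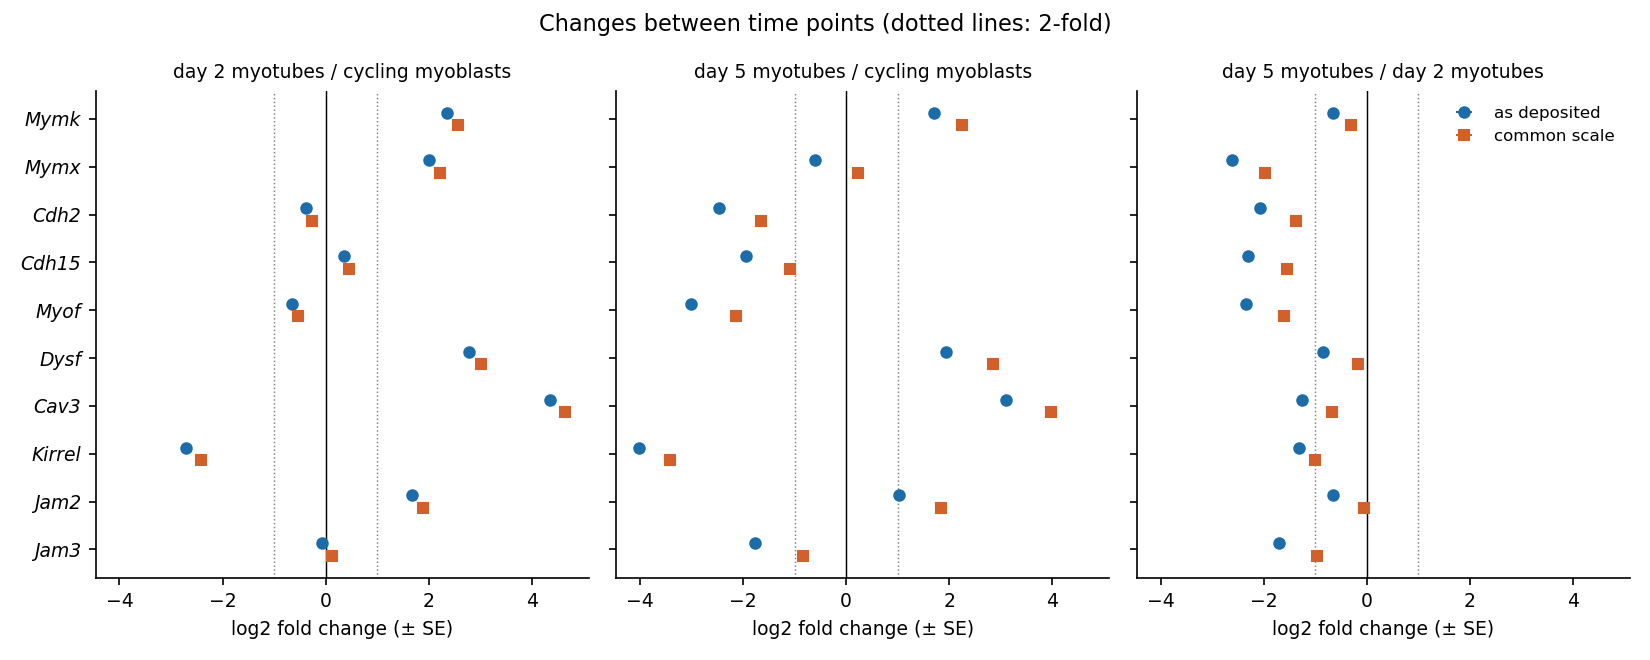
Log2 fold change (x axis, ± SE from limma, often smaller than the symbol) of each gene in the 3 comparisons, as deposited (blue circles) and on the common scale (orange squares), with dotted lines at 2-fold. In the comparison of day 5 with day 2 all 10 genes lie left of 0 on both scales, Mymx furthest.

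From day 2 to day 5 all 10 genes had a negative log2FC on both scales, although for Mymk, Dysf, Jam2 and Cav3 it stayed between -0.05 and -0.68 on the common scale. Among all tested genes 45.4% were lower on both scales in this step. Mymk, Dysf, Cav3 and Jam2 were highest at day 2 and above cycling myoblasts at day 5, and Cdh2, Cdh15, Myof and Kirrel were below cycling myoblasts at day 5. Mymx stood between them, high at day 2 alone. The medians of the 10 genes were 1.02 as deposited and 1.17 on the common scale at day 2, -1.19 and -0.31 at day 5 against cycling myoblasts, and -1.51 and -0.98 at day 5 against day 2.

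**Figure D4:**
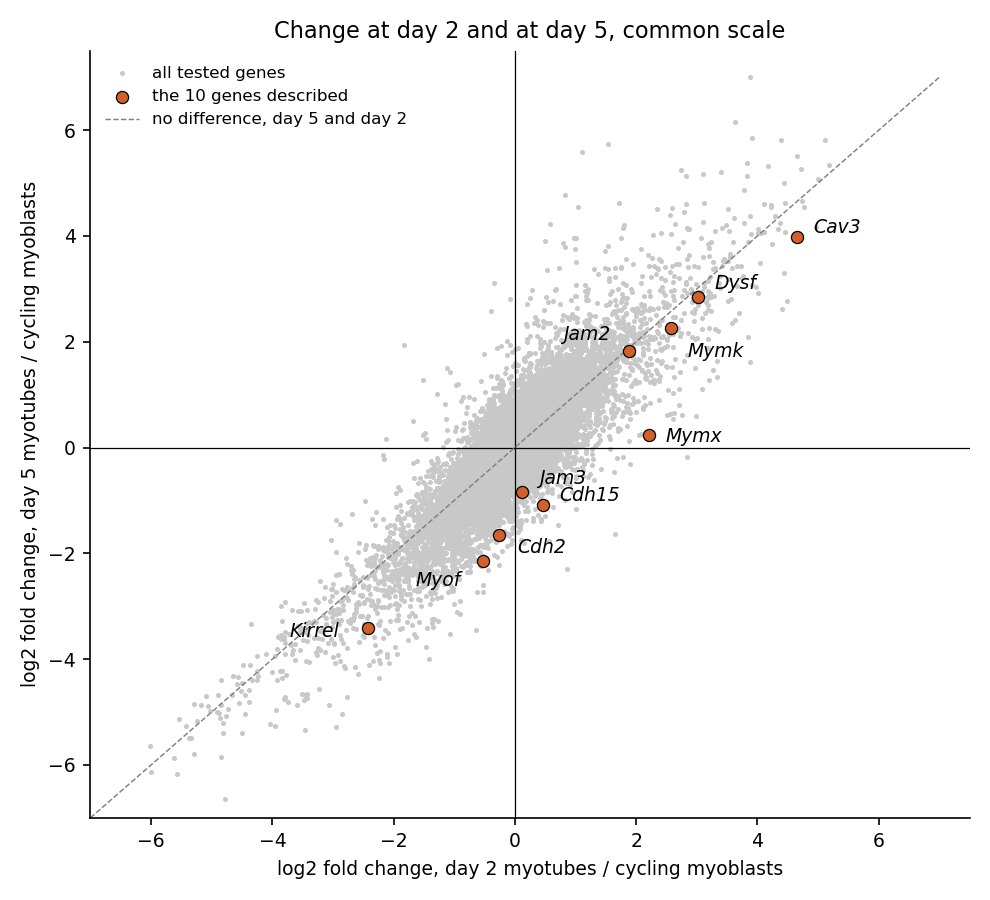
Log2 fold change of all 16582 tested genes (grey) and of the 10 genes described (orange) at day 2 (x axis) and day 5 (y axis) against cycling myoblasts, on the common scale. Both axes share the cycling myoblast arrays, so the slope of the cloud is no result. All 10 genes lie below the dashed line of equal change, Mymx at 2.21 and 0.23.

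Jam2 and Cdh2 are also found outside muscle, so markers of other cell types were read beside them. The 7 endothelial markers had a median level of 3.30 (cycling), 3.41 (day 2) and 3.41 (day 5). On the linear scale they summed to between 70.1 and 70.9 in cycling myoblasts. The sum was higher later, between 82.4 and 83.1 at day 2 and between 83.5 and 83.8 at day 5. None of the 7 lay above the array median on all 3 cycling arrays, and 1 did so at day 2 and at day 5. Pecam1, Cdh5 and Kdr lay between 3.13 and 3.49 at every time point. Tie1 averaged 3.30 (cycling), 3.85 (day 2) and 3.90 (day 5), and Tek 2.71, 3.27 and 3.54. Emcn averaged 2.39, 2.71 and 2.66, and Cldn5 4.26, 4.41 and 4.35. Of 5 fibroblast markers measured, Dcn, Lum and Dpt lay at or below the filter on low values at each time point, while Col1a1 averaged 5.35 (cycling), 5.27 (day 2) and 4.96 (day 5) and Pdgfra 4.29, 3.67 and 4.36. Of these 5 markers 1, 1 and 2 lay above the array median on all 3 arrays of the time point, and the summed level lay between 68.7 and 75.7. The 6 macrophage and leukocyte markers summed to 62.2 in cycling myoblasts, between 78.8 and 80.1 at day 2 and 57.9 at day 5, with 1, 1 and 0 of them above the array median. Adgre1 and Lyz2 lay at or below the filter at every time point, whereas Itgam averaged 2.73 (cycling), 4.69 (day 2) and 3.62 (day 5), Csf1r 2.95, 3.85 and 3.00, Ptprc 2.92, 3.57 and 3.27, and Cd68 4.82, 3.99 and 3.81. The array has no zero level, and the part of these cells in the results was not tested. Of the pericyte and smooth muscle markers Rgs5 averaged 6.65 (cycling), 2.64 (day 2) and 2.66 (day 5), and Abcc9 4.26, 7.47 and 6.38. Cspg4, Myh11 and Kcnj8 averaged between 3.795 and 4.62 at every time point. Of these 5 markers 1, 2 and 3 lay above the array median on all 3 arrays of the time point. They summed to between 172.4 and 175 in cycling myoblasts, 233.7 at day 2 and between 144.2 and 145.8 at day 5. The 3 adipocyte markers measured summed to between 28.7 and 37.3 over the 9 arrays. The 2 Schwann cell markers measured summed to between 34.7 and 39.9.

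Related genes were counted in 7 lists with 101 genes, of which 95 had a probe set and 92 were tested. Over all of them 12 rose and 13 fell at day 2, or 13% and 14.1% of those tested against 6.04% and 8.41% of all tested genes. At day 5 against cycling myoblasts 4 rose and 22 fell, or 4.35% and 23.9% against 4.44% and 12.3%. From day 2 to day 5 none rose and 11 fell, or 12.0% against 3.67%.

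Of 8 tested relatives of the cadherins 1 rose and 2 fell at day 2, and 0 rose and 2 fell at day 5 against cycling myoblasts. Cdh11 (log2FC -1.60 and -1.41 at day 2, -4.51 and -3.99 at day 5), a cadherin of mesenchymal cells, and Cdh6 (log2FC -1.43 and -1.04, -2.86 and -2.24) fell at both. At day 5 both lay under the array median, so these falls have no measured lower end. Cdh13, a cadherin anchored by lipid, rose at day 2 (log2FC 1.09 and 1.30). Of 11 catenins and other partners 0 rose and 1 fell at day 2, and 0 rose and 3 fell at day 5. The falls at day 5 were Ctnnb1 (beta-catenin, log2FC -1.83 and -1.06), Ctnnd1 (p120 catenin, log2FC -2.05 and -1.20) and Nectin1 (log2FC -2.02 and -1.35). Nectin1 had fallen at day 2 too (log2FC -1.47 and -1.11). At day 5 it lay 0.16 above the array median as deposited.

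Of 10 tested caveola genes 3 rose, 3 fell and 4 were not called at day 2, and 2 rose, 3 fell and 5 were not called at day 5 against cycling myoblasts. Cavin4, the muscle cavin, rose (log2FC 3.15 and 3.38 at day 2, 2.28 and 3.02 at day 5), as did Pacsin3 (log2FC 2.95 and 3.22, 2.35 and 3.23), whose protein bends membranes, and Bin1, a gene of T-tubule formation, at day 2 (log2FC 1.16 and 1.38). The other caveolin genes fell: Cav1 had a log2FC of -1.59 and -1.30 at day 2 and -3.12 and -2.38 at day 5, and Cav2 of -1.91 and -1.65 and of -2.53 and -2.02. Cav2 was under the array median from day 2 on. Ehd2, found at the neck of caveolae, fell as well (log2FC -1.36 and -1.20, -3.19 and -2.36). The 4 genes not called at day 2, other cavins among them, were called in neither of the other comparisons and had a day 2 log2FC between -0.47 and 0.53 on the common scale.

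Of 11 tested genes of membrane repair beside Dysf 2 rose and 0 fell at day 2, and 1 rose and 4 fell at day 5 against cycling myoblasts. Trim72 (MG53), a muscle protein that gathers vesicles at membrane wounds, rose at day 2 (log2FC 3.03 and 3.30) and was up at day 5 (log2FC 3.27 and 4.09), and the protease Capn1 rose at day 2 (log2FC 1.09 and 1.33). The 4 that fell by day 5 were the annexins Anxa1 (log2FC -2.60 and -1.99), Anxa2 (log2FC -2.20 and -1.42) and Anxa5 (log2FC -2.01 and -1.19), calcium-dependent membrane binders, and S100a10 (log2FC -1.68 and -1.05), the partner of Anxa2.

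**Figure D5:**
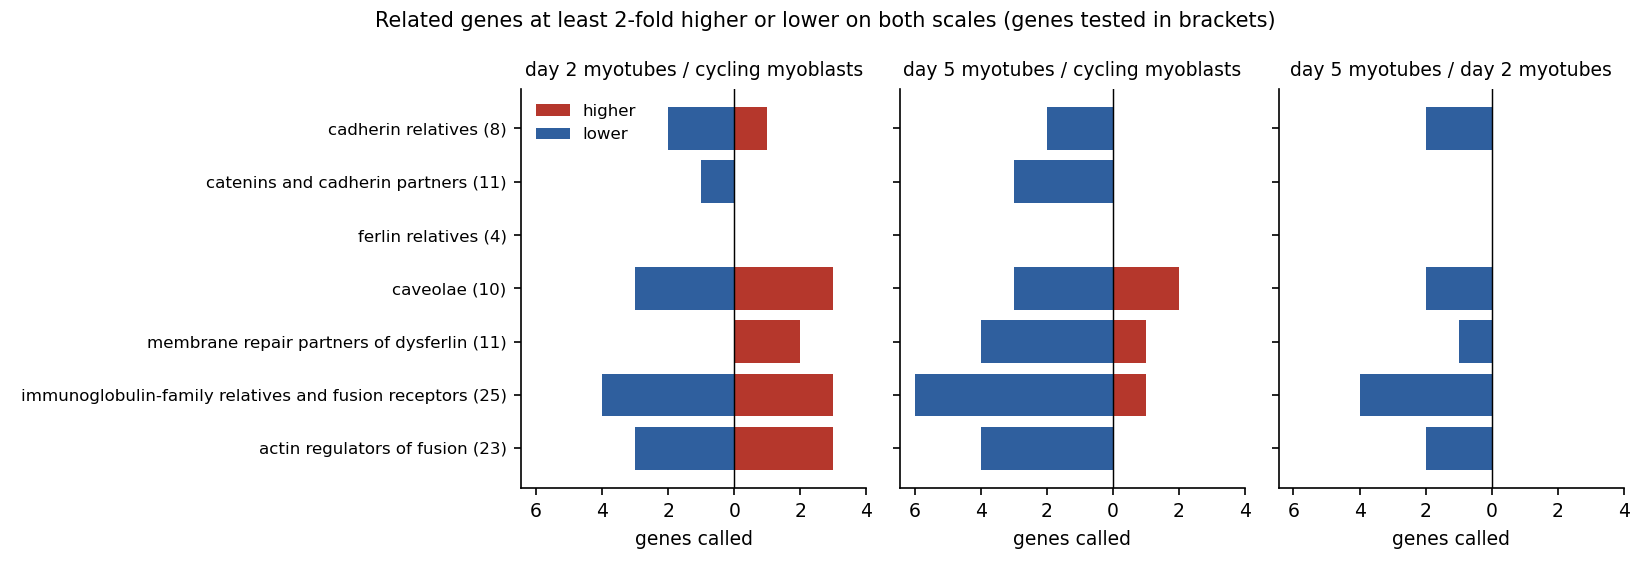
Number of genes (x axis) in each of the 7 lists of related genes that rose (red, right) or fell (blue, left) at least 2-fold on both scales in the 3 comparisons, with the number tested in brackets. From day 2 to day 5 no listed gene rose.

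Of 25 tested immunoglobulin-family relatives and fusion receptors 3 rose and 4 fell at day 2, and 1 rose and 6 fell at day 5 against cycling myoblasts. Ncam1, a neural and muscle cell adhesion molecule, rose at day 2 (log2FC 1.43 and 1.61), as did Itga4 (log2FC 1.16 and 1.30) and Nfatc2 (log2FC 1.06 and 1.03), which lay 0.65 below the array median in cycling myoblasts. Itga4 fell again from day 2 to day 5 (log2FC -2.19 and -1.92), to 0.24 below the array median as deposited. Vcam1, the ligand of Itga4, fell at day 2 (log2FC -3.68 and -3.46) and was lower still at day 5 (log2FC -5.21 and -4.68). At day 5 Vcam1 lay 0.11 above the array median as deposited, so the size of this fall is limited at its lower end. Cxadr (log2FC -2.04 and -1.69 at day 2), a relative of the JAM proteins, the hedgehog co-receptor Boc (log2FC -1.53 and -1.27) and Il4ra (log2FC -1.5 and -1.15), a receptor chain for interleukin 4, fell at day 2 as well. At day 2 Boc lay 0.37 below the array median as deposited. F11r, the JAM family member of epithelia and endothelium, rose by day 5 (log2FC 1.15 and 1.78). In cycling myoblasts F11r lay under the array median. Tjp1, the scaffold that JAM proteins bind, fell by day 5 (log2FC -2.52 and -1.65), with the tetraspanin Cd9 (log2FC -1.81 and -1.0) and the integrin Itga3 (log2FC -2.81 and -1.97).

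Of 23 tested actin regulators of fusion 3 rose and 3 fell at day 2, and 0 rose and 4 fell at day 5 against cycling myoblasts. Trio, a guanine nucleotide exchange factor for Rac1 that works with M-cadherin, rose at day 2 (log2FC 1.22 and 1.47) and fell from day 2 to day 5 (log2FC -1.71 and -1.02). Arhgap10 (log2FC 1.89 and 2.11) and the kinase Pak3 (log2FC 1.28 and 1.16) rose at day 2, and Pak3 fell again from day 2 to day 5 (log2FC -1.40 and -1.27). Pak3 averaged 3.06 (cycling), 4.34 (day 2) and 2.94 (day 5). In cycling myoblasts and at day 5 it lay below the 30th percentile used as filter. It thus entered the tests through day 2 alone, where it is high, so its calls carry little weight. Dock1, an exchange factor for Rac1 needed for myoblast fusion in the mouse, fell at day 2 (log2FC -2.12 and -1.75) and at day 5 (log2FC -2.57 and -1.88). Arf6 (log2FC -1.16 and -1.03 at day 2), a small GTPase, fell at both time points. So did Wipf1 (log2FC -1.61 and -1.26 at day 2), a partner of the WASP proteins. Wasf2 (log2FC -2.0 and -1.09) fell by day 5. At day 5 Dock1 lay 0.16 and Wipf1 0.02 above the array median as deposited, so their falls are limited at the lower end.

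The tested genes whose changes at day 2 and day 5 lay nearest were found, for the 9 of the 10 genes called in at least 1 comparison (all but Jam3), by the Euclidean distance over these 2 changes, averaged over both scales, so likeness rests on 3 time points measured on the same 9 arrays. Nearest to Mymk were Tnnc1, Neurl1a and Atp9a (distances 0.0091, 0.038 and 0.092), and nearest to Mymx were Rdh10, Kcnk13 and Sema3d (0.144, 0.151 and 0.189). Dysf lay nearest to Mustn1, Myorg and Ptges3l (0.028, 0.046 and 0.055), and Cav3 nearest to Hrc, Fgf21 and Myh8 (0.180, 0.336 and 0.373). Jam2 lay nearest to Klhdc3, Mpp3 and Mt2 (0.033, 0.053 and 0.065). Of the genes that fell, Myof lay nearest to F2r, Tmem47 and E2f8 (0.050, 0.054 and 0.078), and Kirrel nearest to Fosl1, Smc4 and Zfp36l2 (0.028, 0.062 and 0.123). Cdh2 lay nearest to Nradd, Fam13b and Rbms3 (0.024, 0.077 and 0.092), and Cdh15 nearest to Rfx3, St8sia2 and Pmp22 (0.060, 0.107 and 0.129).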

How the data were processed

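The authors deposited log2 values made with RMA, run on each replicate set by itself per the submitters' design text and processing notes. In these values the sorted distributions of 2 arrays differed by at most 0.0251 on average within a time point and by at least 0.188 between time points. All columns were used, with 35556 probe sets on each of 9 arrays. The probe set of highest mean stood for each gene; 16582 genes above the 30th percentile of their array on at least 3 arrays were tested. One limma 3.58.1 model (R 4.3.3; lmFit, eBayes) with a mean per time point was fitted as deposited and after quantile normalization over all 9 arrays, with Benjamini-Hochberg adjustment over all tested genes, and was tested on simulated data. The alternatives were other scalings, filters, probe set rules and variance models, a replicate block and leaving out each array. Of the related lists, genes called in any comparison could be named. Symbols follow the platform annotation and, for names only, RefSeq of GRCm38.p6. The 10 genes and all lists were chosen with earlier results of these data known. The number of arrays limits the precision.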

Additional observations from a re-analysis of the deposited data

How the results depend on the processing

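Among the 540 log2FC values of the 10 genes under alternatives, 7 were called only there, 1 was no longer called and 3 changed sign. Of the 7, 4 came from the deposited scale alone, where the log2FC are those given above and only the common scale was dropped. The other 3 came with arrays centred on their medians. They cover Jam3 at day 5 against cycling myoblasts, and Jam3, Kirrel and Cav3 at day 5 against day 2, some of them more than once. The filters, the probe set rule, the variance model and the replicate block leave a log2FC as it is by construction, so they are no check on these values. The sign changes were Jam3 at day 2 (0.12 on the common scale, 0.0064 with arrays centred on their medians) and Mymx at day 5 against cycling myoblasts (0.23 on the common scale). Tested against a 2-fold change, Jam2 at day 5 (log2FC 1.03) was not called. Of the 12 differences in log2FC between paired genes, 10 moved on the common scale by more than their SD between arrays as deposited. None of the 12 changed sign. Genes called at day 5 against cycling myoblasts numbered 2776 (736 up, 2040 down), but 5576 as deposited alone (736 up, 4840 down), an alternative added after seeing the data, 4749 with arrays centred (1413 up, 3336 down) and 4000 on the common scale alone (1960 up, 2040 down). At day 5 against day 2 these were 736 (127 up, 609 down), 2675 (127 up, 2548 down), 1521 (234 up, 1287 down) and 1070 (461 up, 609 down), and as deposited alone 7 of the 10 genes were called lower in place of 4 (Cav3, Kirrel and Jam3 in addition). At day 2 the 2396 genes (1002 up, 1394 down) became 3054 as deposited alone (1060 up, 1994 down) and 2683 on the common scale alone (1281 up, 1402 down). The cause of these shifts was not tested. Leaving out any one array kept the counts of the 10 genes called at 6, 8 and 4 and gave 2375 to 2406, 2763 to 2785 and 729 to 753 genes. The replicate numbers did not pair the arrays (correlations of same-numbered deviations from -0.038 to 0.106, and 8 of 18 best with their own number), and with the replicate block 2396, 2776 and 736 genes and 6, 8 and 4 of the 10 were called. The deposited table holds no background, so levels near the array median bound the falls below them.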
